A study of Mus musculus with 5 samples.

Results

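The genes described here encode the amyloid precursor protein, its 2 relatives, the proteases that cut it, a receptor that sorts it and a pair of extracellular chaperones linked to Alzheimer's disease risk. The set held 9 genes chosen by name, out of 32531 genes listed in the count tables: App, Aplp1, Aplp2, the protease genes Adam10, Bace1 and Psen2, the sorting receptor gene Sorl1, and Apoe and Clu. RNA bound to tagged ribosomes was measured in adult mice that carried Rbp4-Cre (line KL100) and a Cre-dependent EGFP-tagged copy of the ribosomal protein Rpl10a at the Rosa26 locus. All 5 libraries came from untreated mice of this one genotype, 2 from dissected cerebral cortex and 3 from dissected dentate gyrus. Each was an anti-EGFP pulldown, a method called translating ribosome affinity purification that enriches the RNA of cells in which Cre has acted. The Rbp4-Cre KL100 line is known for Cre expression in pyramidal neurons of cortical layer 5, and the series names neurons of cortex and dentate gyrus as its subject. Input RNA and untagged pulldowns were not analysed here, and background binding has no measure. Nothing in the labels ties a replicate to a mouse of its own. The p-values below therefore reflect variation among these samples only, and that variation may be technical.

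The amyloid precursor protein is a transmembrane protein with a large extracellular part. It is cut first by either an α-secretase, of which ADAM10 is the main neuronal enzyme, or by the β-secretase BACE1, and the remaining stub is then cut within the membrane by γ-secretase, whose catalytic subunit is presenilin. Only the path through BACE1 yields the amyloid-β peptide. The receptor SORLA, encoded by Sorl1, steers the precursor away from the compartments where BACE1 acts, while apolipoprotein E and clusterin bind amyloid-β outside cells and are made mostly by astrocytes in the healthy brain.

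Gene counts summed to between 22600963 and 36837908 per library. All values below are counts scaled to 1e6 reads assigned to genes (CPM) after scaling by trimmed mean of M values. Differences are log2 fold changes, dentate gyrus minus cortex, from the quasi-likelihood test of edgeR. P-values were adjusted by the Benjamini-Hochberg method over 14136 tested genes, and a gene was called at an adjusted p under 0.05. All 6 dentate granule cell markers were called higher in dentate gyrus, and 4 of 6 layer 5 markers were called higher in cortex, with Bcl11b called the other way. A pair of libraries held genes unlike their group, of which 2 are named here after their values were seen. Car8 stood at 411 CPM in cortex replicate 1 and at 1.44 CPM in cortex replicate 2, and Dcn stood at 114 CPM in dentate gyrus replicate 2 and at 1.71 and 10.5 CPM in replicates 1 and 3. Results are therefore also given without these libraries where that ends a call.

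Of the 9 genes, 4 were called higher in cortex (App, Aplp2, Clu and Sorl1) and 0 higher in dentate gyrus. All 9 had passed the filter on low counts. Among all tested genes 21.3% were called, 10.8% as higher in cortex and 10.5% as higher in dentate gyrus. At an unadjusted p under 0.05 the counts were 5 and 0, and DESeq2 and limma voom each called 4 and 0. The median difference of the 9 genes was -0.55, beside 0.02 for all tested genes. In 5 of the 9 genes the libraries of the tissues did not overlap, as in 50.1% of tested genes. Without cortex replicate 1 the number called higher in cortex was 2, and with dentate gyrus replicate 2 also left out it was 1, App.

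**Figure D1:**
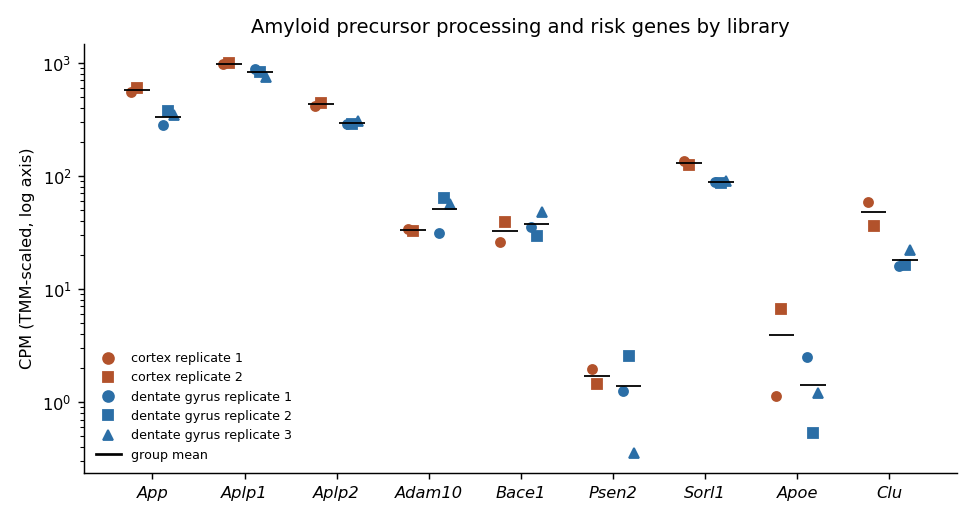
CPM of each gene in every library on a log axis, orange for cortex and blue for dentate gyrus, with the replicate given by the symbol and the group mean by a black line. The 3 genes of the precursor family lie near the top, at 282 to 981 CPM, and Psen2 and Apoe lie at the bottom, between 0.352 and 6.69 CPM.

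The precursor family was the most abundant part of the set. App (chromosome 16, 84949685 to 85173766, minus strand, GRCm38) had 547 and 601 CPM in the cortex libraries, in replicate order here and below, and 282, 375 and 343 CPM in the dentate gyrus libraries. Each cortex library was above each dentate gyrus library, and dentate gyrus replicate 1 was the lowest of all. The mean of App was 574 ± 38.6 CPM (SD, n = 2) for cortex and 333 ± 46.8 CPM (SD, n = 3) for dentate gyrus. The log2 fold change was -0.78 (SE 0.14), or 1.72-fold more in cortex, and the adjusted p was 0.00307 by edgeR. The call stood in each of the 15 alternatives, with log2 values from -0.94 to -0.70. In pulldowns from bulk tissue, fewer cells of a type and less RNA per cell cannot be told apart, here and in the results that follow.

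Aplp2, which encodes a broadly expressed relative of the precursor without the amyloid-β sequence, followed the same direction. It lies on chromosome 9 (31149557 to 31211815, minus strand). The cortex libraries held 412 and 442 CPM and the dentate gyrus libraries 288, 285 and 303 CPM, so the groups were well separated and each was tight. Its log2 fold change was -0.55 (SE 0.11), with an adjusted p of 0.00752 by edgeR. With both unlike libraries left out, the log2 value was -0.57 and the adjusted p 0.0720.

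Aplp1, the third relative, is largely restricted to the nervous system and was the most abundant of the 9 genes. It lies on chromosome 7 (30434982 to 30445535, minus strand). Levels were 968 and 981 CPM in cortex and 874, 831 and 746 CPM in dentate gyrus. The groups did not overlap, but the gap was small and the gene was not called, with a log2 fold change of -0.25 (SE 0.10), an unadjusted p of 0.0358 and an adjusted p of 0.119 by edgeR. The 95% interval of the difference ran from -0.49 to -0.02.

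The mix of the family is given within each library. The family summed to 1927 and 2025 CPM in cortex and to 1445, 1491 and 1393 CPM in dentate gyrus. App made up 28.4% and 29.7% of family reads in cortex and 19.5%, 25.1% and 24.6% in dentate gyrus, while Aplp1 made up 50.2% and 48.5% in cortex and 60.5%, 55.7% and 53.6% in dentate gyrus. Aplp2 kept a share of 19.1% to 21.8% in all libraries. Per App read there were 1.77 and 1.63 Aplp1 reads for cortex and 3.10, 2.22 and 2.17 for dentate gyrus. This ratio needs no scaling between libraries, and it was 1.45-fold higher in dentate gyrus, with no overlap. The exact two-sided permutation test over libraries gave p = 0.1, the smallest value that 2 against 3 libraries allow.

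**Figure D2:**
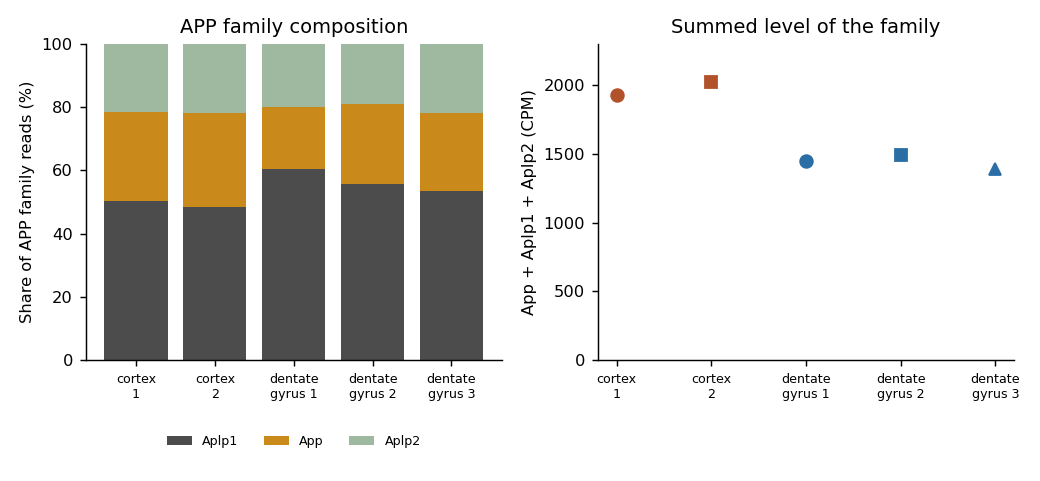
Left, share of App, Aplp1 and Aplp2 among the reads of the family in each library, in percent. Right, summed CPM of the family, orange for cortex and blue for dentate gyrus with the replicate given by the symbol. The App share is 28.4% or more in both cortex libraries and 25.1% or less in the dentate gyrus libraries, and the summed level is lower in all 3 dentate gyrus libraries.

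The proteases were present at much lower levels and none of the 3 was called. Adam10, the α-secretase gene (chromosome 9, 70678997 to 70780229, plus strand), was at 34.2 and 32.2 CPM in cortex and at 31.0, 64.0 and 56.5 CPM in dentate gyrus. Dentate gyrus replicate 1 lay at the cortex level and the other two lay well above it. The log2 fold change was 0.60 (SE 0.32) with an adjusted p of 0.219 by edgeR. Without dentate gyrus replicate 1 it was 0.84 with an adjusted p of 0.0406, and Adam10 stayed uncalled in the other 14 of 15 alternatives. Without dentate gyrus replicate 2 or 3 the log2 value was 0.38 and 0.50, with adjusted p of 0.492 and 0.405.

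Bace1, the β-secretase gene (chromosome 9, 45838580 to 45864399, plus strand), was at 26.1 and 39.0 CPM in cortex and at 35.4, 29.5 and 48.2 CPM in dentate gyrus. The groups overlapped, and the log2 fold change of 0.21 (SE 0.30) had an adjusted p of 0.687 by edgeR, with a 95% interval from -0.46 to 0.89. Its sign turned when cortex replicate 1 (-0.043) or dentate gyrus replicate 3 (-0.014) was left out. Exons of Rnf214 on the opposite strand overlap Bace1 exons over 975 bases, and without a known strand setting reads there cannot be assigned to 1 gene. Bace1 reads per Adam10 read were 0.763 and 1.21 in cortex and 1.14, 0.461 and 0.854 in dentate gyrus, with overlap and an exact two-sided permutation p of 0.7.

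The presenilin gene Psen2 (chromosome 1, 180227004 to 180263438, minus strand) was the scarcest of the 3 protease genes. It was at 1.97 and 1.44 CPM in cortex and at 1.24, 2.53 and 0.352 CPM in dentate gyrus, the last from 9 reads with an exact Poisson interval of 0.161 to 0.669 CPM that covers counting error only. The spread within dentate gyrus was wider than the distance between the tissues. The log2 fold change was -0.31 (SE 1.12), and the 95% interval, from -2.81 to 2.19, held changes in either direction (adjusted p 0.887 by edgeR).

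For 5 other subunit genes of γ-secretase, the values are given beside Psen2. These 5 were not called by edgeR. Ncstn, which encodes nicastrin, averaged 34.6 ± 7.58 CPM over the cortex libraries (SD, n = 2) and 27.7 ± 5.91 CPM over those of dentate gyrus (SD, n = 3), with overlap. Aph1b and Aph1c, near-identical neighbouring copies whose reads the counting could split or discard, leaned in opposite directions, Aph1b at 25.01 and 20.3 CPM in cortex against 10.2, 14.04 and 12.8 CPM in dentate gyrus, and Aph1c at 13.2 and 12.02 CPM against 17.9, 18.3 and 17.5 CPM. Neither passed by edgeR (adjusted p 0.0974 and 0.342), and DESeq2 called Aph1b with an adjusted p of 0.0445. Aph1a (0.741 to 3.37 CPM) and Psenen (0.392 to 1.46 CPM) were scarce in all libraries. On the opposite strand, exons of Car14 overlap those of Aph1a over 445 bases, exons of Copa those of Ncstn over 195 bases and exons of U2af1l4 those of Psenen over 119 bases.

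**Figure D3:**
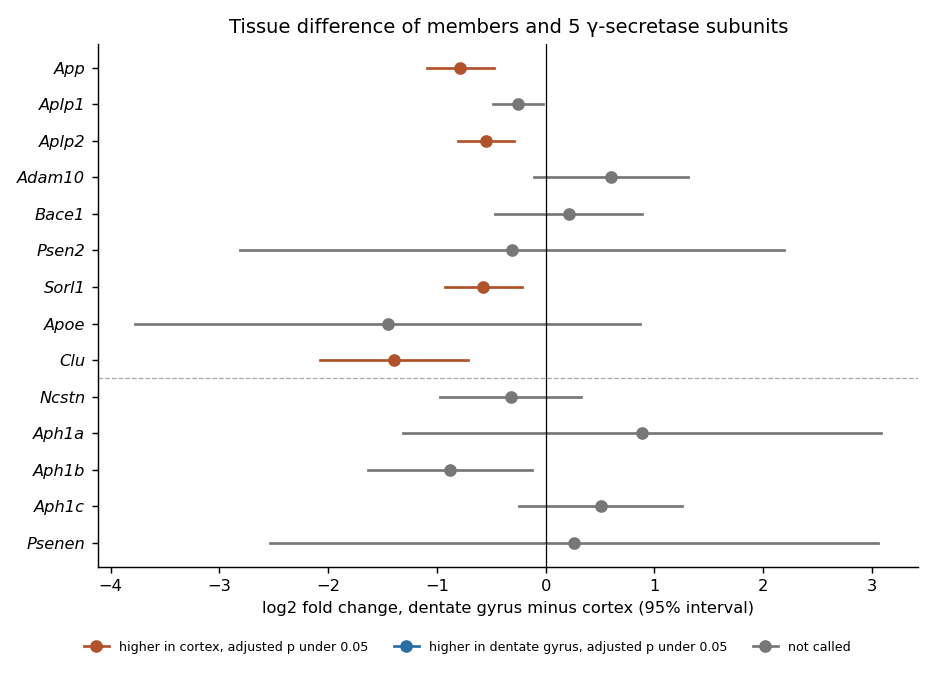
Log2 fold change, dentate gyrus minus cortex, with its 95% interval from the edgeR fit, for the 9 genes (above the dashed line) and 5 other γ-secretase subunits (below it). Orange marks genes called higher in cortex and grey genes not called. App, Aplp2, Sorl1 and Clu lie left of 0, and the intervals of Psen2 and Apoe are the widest of the 9.

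Sorl1, which encodes SORLA, lies on chromosome 9 (41964720 to 42124297, minus strand). Cortex libraries held 135 and 125 CPM and dentate gyrus libraries 87.3, 85.9 and 89.6 CPM. The dentate gyrus libraries were close to each other and all were below cortex. The log2 fold change was -0.57 (SE 0.16) and the adjusted p 0.0294 by edgeR. This call was the least stable of the 4. The adjusted p was above the threshold in 6 of 15 alternatives, among them 0.166 and 0.0781 when cortex replicate 1 or 2 was left out, 0.0583 and 0.0614 when dentate gyrus replicate 2 or 3 was left out, and 0.241 with both unlike libraries left out. The log2 value stayed between -0.66 and -0.50.

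Among the related VPS10 receptors and the retromer, the complex that returns such receptors from endosomes, 1 of 9 tested genes was called in each direction, a share near the 21.3% called among all tested genes, and the median was -0.05. Sorcs1, a VPS10 receptor gene, was at 76.0 and 38.4 CPM in cortex and at 6.26, 3.91 and 11.2 CPM in dentate gyrus (log2 -3.00, SE 0.46, adjusted p 0.00124 by edgeR). Vps26b, a retromer subunit gene, was at 145 and 176 CPM in cortex and at 262, 240 and 242 CPM in dentate gyrus (log2 0.63, SE 0.14, adjusted p 0.0120 by edgeR, and 0.0986 without cortex replicate 1).

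Of the genes called lower in dentate gyrus, 3 have a start site in the RefSeq promoter table (GRCm38.p6), which matched 7 of the 9 genes. The stretches before their first listed start sites are shown to set the promoters of these genes side by side, 5′ to 3′ on the gene's strand, with each match to GGGCGG on either strand in capitals. The App stretch is chr16:85173767-85173957 (minus strand), the Aplp2 stretch chr9:31211849-31212098 (minus strand) and the Sorl1 stretch chr9:42124298-42124547 (minus strand).
App: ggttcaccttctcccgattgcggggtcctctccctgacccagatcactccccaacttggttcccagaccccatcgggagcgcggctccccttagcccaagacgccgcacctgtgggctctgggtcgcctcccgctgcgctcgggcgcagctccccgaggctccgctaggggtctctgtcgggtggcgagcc
Aplp2: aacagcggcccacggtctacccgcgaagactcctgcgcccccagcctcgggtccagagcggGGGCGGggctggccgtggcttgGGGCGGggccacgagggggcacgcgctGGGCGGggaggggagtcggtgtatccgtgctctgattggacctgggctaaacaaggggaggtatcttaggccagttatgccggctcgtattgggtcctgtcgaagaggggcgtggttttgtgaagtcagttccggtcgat
Sorl1: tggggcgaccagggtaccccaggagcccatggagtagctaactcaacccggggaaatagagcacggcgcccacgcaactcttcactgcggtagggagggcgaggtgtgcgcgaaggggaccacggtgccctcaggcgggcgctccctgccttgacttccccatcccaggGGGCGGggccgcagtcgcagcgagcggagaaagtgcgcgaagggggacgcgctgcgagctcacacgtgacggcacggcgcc
The App stretch stops where GENCODE M21 places its outermost exon, 59 bases before the RefSeq start. Over the full 250 bases before each of these starts, G and C made up 70.8% of App, 66.4% of Aplp2 and 69.6% of Sorl1. GGGCGG, the GC box, occurred 1, 3 and 1 times, the App match lying in the 59 bases not shown. It was present in 56.6% of the windows of the same length before the starts of tested genes. TATAAA was found in none of the 3 windows (6.42% of windows), and CACGTG in Sorl1 only (8.09% of windows), 19 bases before the start. The table lists a second Sorl1 start, whose 250 bases (chr9:42077214-42077463, minus strand, not shown) were 47.2% G and C and held 0 matches to any of the 3 motifs. These matches describe the sequence and were not tested against the counts.

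The chaperone genes differed from each other in level and stability. Clu, which encodes clusterin (chromosome 14, 65968483 to 65981547, plus strand), was at 58.7 and 36.3 CPM in cortex and at 15.9, 16.3 and 22.1 CPM in dentate gyrus. The groups did not overlap, and cortex replicate 1 was the highest. With a log2 fold change of -1.39 (SE 0.30), Clu had the largest difference of the 4 called genes, 2.63-fold in favour of cortex (adjusted p 0.00925 by edgeR). Without cortex replicate 1 the log2 value was -0.9999 and the adjusted p 0.127, and with dentate gyrus replicate 2 also left out they were -0.93 and 0.217.

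Apoe (chromosome 7, 19696109 to 19699188, minus strand) had 1.14 and 6.69 CPM in cortex and at 2.51, 0.533 and 1.21 CPM in dentate gyrus. Counts were 40 and 163 in cortex and 91, 12 and 31 in dentate gyrus, and the exact Poisson interval of cortex replicate 2 (5.70 to 7.80 CPM) lay above those of the other 4 libraries. The difference between the cortex libraries was thus larger than counting error, and the groups overlapped. The log2 fold change of -1.45 (SE 1.04) had an adjusted p of 0.382 by edgeR and became 0.29 without cortex replicate 2.

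Clu and Apoe are glial genes in most brain tissue, so the glial markers are given beside them. The 13 astrocyte markers summed to 1286 and 1349 CPM in cortex and to 713 to 894 CPM in dentate gyrus. Most of this was Slc1a2, a glutamate transporter gene, at 984 and 1004 CPM in cortex and 595 to 717 CPM in dentate gyrus. Of 12 tested astrocyte markers 5 were called higher in cortex and 0 higher in dentate gyrus, beside 10.8% and 10.5% of all tested genes. At an unadjusted p under 0.05 the counts were also 5 and 0, and by DESeq2 and limma voom also 5 and 0. These checks kept both unlike libraries, and not every one of these calls stood without them. The 10 microglia markers summed to 11.4 and 12.8 CPM in cortex and to 3.89 to 6.85 CPM in dentate gyrus, with C1qa at 0 in all libraries. The 7 choroid plexus markers summed to 1.57 and 10.5 CPM in cortex and to 9.22 to 31.8 CPM in dentate gyrus. Most of that in dentate gyrus was Kl, at 7.67 to 31.4 CPM, and Folr1 and Kcne2 were at 0 in all libraries. The astrocyte markers did not all lean one way. Those called higher in cortex, listed after their values were seen, were Aldh1l1, S100b, Sox9, Aldoc and Slc1a2. Their log2 values were -7.07, -4.55, -2.75, -2.43 and -0.63. Gfap, Slc1a3, Gja1, Aqp4 and Fgfr3, named after their values were seen, had log2 values of 1.55, 1.16, 0.66, 0.61 and 0.36, and none of these 5 was called. The choroid plexus marker Ttr, also chosen after its values were seen, reached 7.10 CPM in cortex replicate 2, where Apoe was highest, and was at 0 in cortex replicate 1. The choroid plexus markers did not all follow Apoe. Clic6 was at 1.28 and 0.492 CPM in cortex, Kl at 0.285 and 2.46 CPM, and Aqp1 at 0 and 0.492 CPM. Clic6 and Aqp1 were likewise named after their values were seen. Kl was highest in dentate gyrus replicate 3, where Apoe was at 1.21 CPM. The part of glial RNA in the Clu and Apoe values was not tested.

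**Figure D4:**
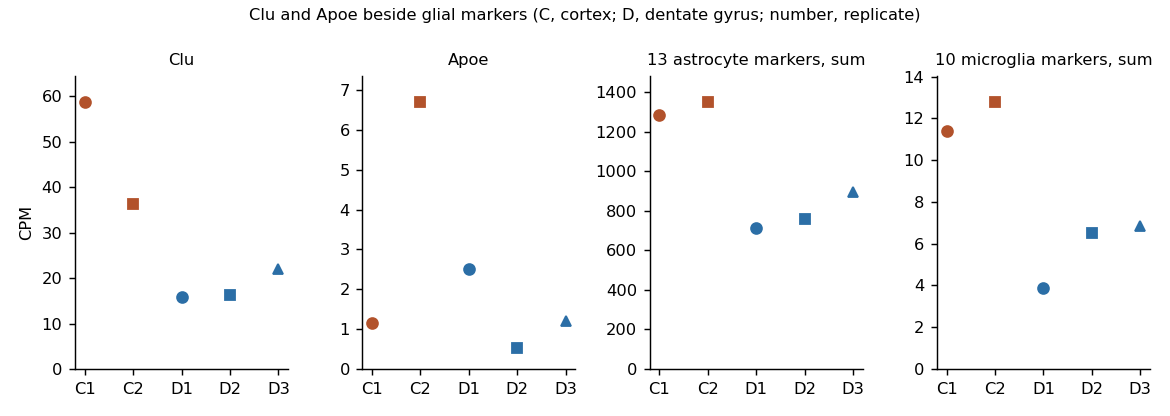
CPM of Clu and Apoe and the summed CPM of 13 astrocyte and 10 microglia markers in each library, orange for cortex (C) and blue for dentate gyrus (D), each panel with its own axis from 0. Clu and both marker sums are higher in both cortex libraries than in any dentate gyrus library, whereas Apoe is high in cortex replicate 2 only.

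Genes that handle apolipoproteins showed no call. Of 8 tested genes for lipidation and lipoprotein receptors, edgeR called 0 in either direction, beside 21.3% called among all tested genes. The median was -0.02, and 1 gene (higher in cortex) had an unadjusted p under 0.05. DESeq2 and limma voom called 0 in both directions. In 4 of the 8 genes the libraries of the tissues did not overlap, as in 50.1% of tested genes.

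Levels were compared between the 9 genes per kilobase of transcript, using the longest principal coding transcript of GENCODE M21. In cortex the order was Aplp1 (416 ± 4.05 CPM per kilobase, SD, n = 2), App (181 ± 12.2), Aplp2 (118 ± 5.81), Clu (26.2 ± 8.74), Sorl1 (12.2 ± 0.641), Adam10 (7.23 ± 0.299), Bace1 (5.37 ± 1.51), Apoe (2.78 ± 2.79) and Psen2 (0.842 ± 0.186). Apoe and Psen2 overlapped, as did Bace1 and Apoe, and the other neighbours did not. In dentate gyrus the order was Aplp1 (349 ± 27.9 CPM per kilobase, SD, n = 3), App (105 ± 14.8), Aplp2 (80.5 ± 2.67), Adam10 (11.0 ± 3.77), Clu (9.99 ± 1.91), Sorl1 (8.18 ± 0.172), Bace1 (6.23 ± 1.58), Apoe (1.01 ± 0.714) and Psen2 (0.681 ± 0.542). There Adam10 overlapped with both Clu and Bace1, as did Apoe and Psen2. Sorl1 lay within the range of Adam10 and below Clu in all libraries. Aplp1 lay above 99.5% of tested genes with a known length in cortex and above 99.4% in dentate gyrus, App above 98.4% and 96.7%, and Psen2 above 18.5% in both. With the union of all annotated exons as the length, which is 12996 rather than 3176 bases for App, Aplp2 lay above App in both tissues.

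The wider pathway lists did not move one way. Of 81 tested genes in the 9 lists, 11 were called with more reads in dentate gyrus and 14 with more in cortex. Among all tested genes the shares called were 10.5% and 10.8%. The median of the list genes was -0.02 beside 0.02 for all tested genes. The counts of list genes were lower with both unlike libraries left out, and with cortex replicate 1 alone left out. A further 8 list genes did not pass the filter.

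On the α-secretase side, 2 of 9 tested genes were called higher in cortex and 0 higher in dentate gyrus. That share was near the 21.3% called among all tested genes. The counts were 3 and 1 at an unadjusted p under 0.05, 2 and 1 by DESeq2 and 3 and 0 by limma voom. Both called genes encode tetraspanins that carry ADAM10 to the cell surface. Tspan5 was at 374 and 359 CPM in cortex and at 239, 171 and 241 CPM in dentate gyrus (log2 -0.76, SE 0.16, adjusted p 0.00886 by edgeR, and 0.0560 without cortex replicate 1). Tspan17 was at 42.03 and 17.8 CPM in cortex and at 2.35, 1.73 and 3.72 CPM in dentate gyrus (log2 -3.52, SE 0.51, adjusted p 0.000904 by edgeR, and 0.0531 with both unlike libraries left out). On the β-secretase side 2 of 7 were called higher in cortex and 0 higher in dentate gyrus, beside 21.3% called among all tested genes. The counts were the same at an unadjusted p under 0.05, by DESeq2 and by limma voom. Rtn3 and Rtn4, reticulon genes whose products bind BACE1, had log2 fold changes of -0.54 (SE 0.10) and -0.65 (SE 0.14) by edgeR, with adjusted p of 0.00484 and 0.00992, and of 0.0519 and 0.0652 without cortex replicate 1.

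Among adaptors of the precursor's cytoplasmic tail and the related BRI proteins, 3 of 10 were called higher in cortex and 1 higher in dentate gyrus. The share called among all tested genes was 21.3%. Apbb1, which encodes the adaptor Fe65, was at 60.4 and 56.5 CPM in cortex and at 22.1, 23.8 and 22.2 CPM in dentate gyrus (log2 -1.36, SE 0.23, adjusted p 0.00217 by edgeR). Apba1, an adaptor gene of the X11 family, had a log2 fold change of -0.72 (SE 0.16, adjusted p 0.00894 by edgeR, and 0.0643 without cortex replicate 2). Dab1, the adaptor of reelin receptors, went the other way, at 264 and 267 CPM in cortex and at 486, 516 and 448 CPM in dentate gyrus (log2 0.87, SE 0.12, adjusted p 0.000753 by edgeR).

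Among the 4 tested amyloid-degrading proteases, Ece2, an endothelin-converting enzyme gene, was called higher in dentate gyrus and 0 were called higher in cortex by edgeR. The counts were 2 and 1 at an unadjusted p under 0.05, 2 and 1 by DESeq2 and 1 and 1 by limma voom. Ece2 was at 0.627 and 1.35 CPM in cortex and at 11.0, 4.49 and 4.66 CPM in dentate gyrus (log2 2.77, SE 0.81, adjusted p 0.0355 by edgeR). Its adjusted p was 0.174 and 0.0787 when cortex replicate 1 or 2 was left out, 0.152 when dentate gyrus replicate 1 was left out and 0.0540 by limma voom.

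The other proteins cut by BACE1 formed the list with the most calls for its size, 7 of 10, in both directions, beside the 21.3% called among all tested genes. Here 4 were called higher in cortex and 3 higher in dentate gyrus, with a median of -0.47. The 3 higher in dentate gyrus, named after their values were seen, were Jag1, Sez6l and Chl1, at log2 5.52, 1.23 and 0.81. Their adjusted p values by edgeR were 0.00336, 0.00512 and 0.00745. Not all of these 3 calls stood with both unlike libraries left out. Jag1 was scarce in cortex, at 0.285 and 0.0410 CPM. L1cam, a neural adhesion gene, was at 209 and 177 CPM in cortex and at 44.2, 75.6 and 72.6 CPM in dentate gyrus (log2 -1.59, SE 0.23, adjusted p 0.000998 by edgeR). Sez6, a dendritic membrane protein gene, was at 45.3 and 47.9 CPM in cortex and at 12.5, 15.8 and 9.87 CPM in dentate gyrus (log2 -1.87, SE 0.29, adjusted p 0.00150 by edgeR). Scn2b, a sodium channel subunit gene, had a log2 fold change of -0.82 (SE 0.14, adjusted p 0.00265 by edgeR). Bace1 itself was not called, as given above.

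Of 18 tested genes near other Alzheimer's disease risk loci, 4 were called with higher levels in dentate gyrus and 2 with higher levels in cortex. The median was 0.35, and 21.3% of all tested genes were called. Ptk2b, a calcium-responsive tyrosine kinase gene, was at 343 and 265 CPM in cortex and at 1177, 836 and 1069 CPM in dentate gyrus (log2 1.75, SE 0.17, adjusted p 8.97e-05 by edgeR). Adamts1, an extracellular protease gene, was at 3.76 and 2.01 CPM in cortex and at 19.0, 16.3 and 15.9 CPM in dentate gyrus (log2 2.56, SE 0.47, adjusted p 0.00406 by edgeR). Mef2c, a transcription factor gene, was at 1588 and 1645 CPM in cortex and at 643, 612 and 599 CPM in dentate gyrus. Abi3, named after its values were seen and best known from microglia, was at 0 counts in all libraries.

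**Figure D5:**
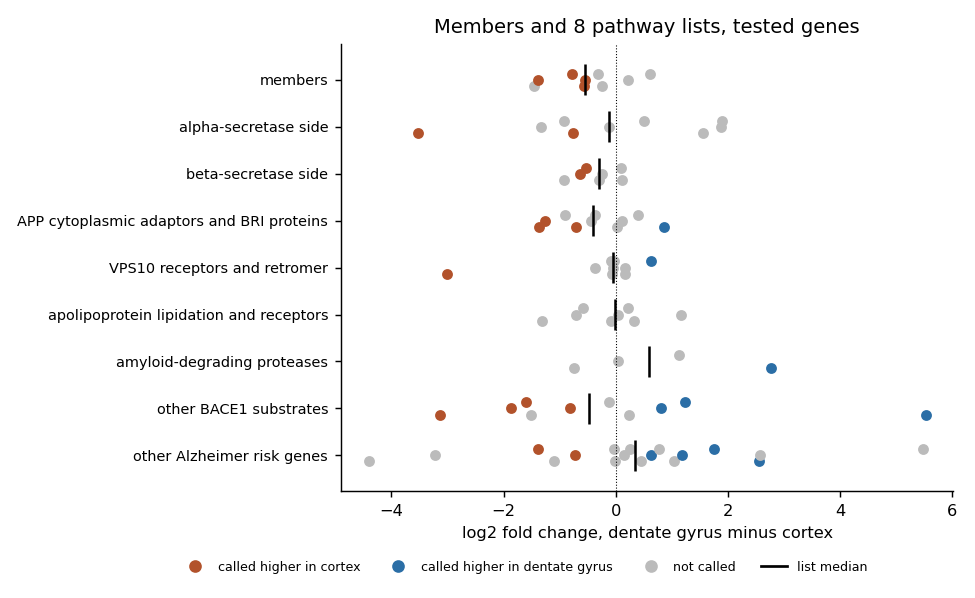
Log2 fold change, dentate gyrus minus cortex, of each tested gene among the 9 genes described here (top row, labelled members) and in 8 of the pathway lists, with the list median as a black line. Orange points were called higher in cortex, blue points higher in dentate gyrus and grey points were not called. Called genes among the 9 lie left of 0, whereas the BACE1 substrates and the other risk genes have called genes on both sides.

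The genes whose pattern over the 5 libraries was most like that of App were Apba1, Bhlhe40 and Eml1, with root-mean-square differences of 0.047, 0.048 and 0.053 in centred log2 CPM, among 7668 candidate genes with at least 10 CPM on average. Apba1 is in the adaptor list above, and Bhlhe40 is a transcription factor gene. For Sorl1 they were Cfl1, Tecr and Cs, at 0.0255, 0.0301 and 0.0315. For Apoe the closest candidates, Fbf1, Mybl1 and Map4k2, were far off at 0.517, 0.535 and 0.599. Apoe itself was below 10 CPM in every library, and genes as scarce as Apoe were not among the candidates. Whether a gene at that level matches the Apoe pattern was therefore not tested. These distances describe 5 libraries and say nothing of shared control.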

How the data were processed

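The authors deposited unnormalised read counts by gene symbol for each library. STAR 2.0.0e, HTSeq and mm10 are named in the submitters' processing notes. Which annotation, strand setting and HTSeq version they used is not given in the sources used here. Rows that name no gene entered neither the library sizes nor the fits. In them, reads without a feature made up 10.59% to 14.83% of counted reads, not unique 25.03% to 31.76% and ambiguous 1.81% to 1.87%. Such handling can lower genes with near-identical copies.

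Groups came from the labels. edgeR 4.0.16 (R 4.3.3) was fitted to tissue alone over all 5 libraries after filterByExpr and TMM scaling. SE is the size of the log2 fold change divided by the square root of F. DESeq2 1.42.0, limma voom 3.58.1, other scalings and filters, robust dispersion, a replicate block, removal of Rn45s and removal of libraries were alternatives. On simulated counts of 14136 genes, 22 of 92 genes changed 2-fold (23.9%) and 44 of 97 changed 4-fold (45.4%) were recovered. There were 6 false calls among 72. Far fewer genes were changed there than the 21.3% called in the data, which makes the adjusted threshold stricter. These rates therefore do not give the recovery in the data. A floor of 3 counts is 0.0828 to 0.133 CPM per library, and it covers counting error only. GENCODE M21 (GRCm38, which mm10 also denotes) gave positions and lengths, the latter for 90.7% of tested genes, and RefSeq gave promoters. Figures used matplotlib 3.10.9.

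The members and lists were chosen with earlier results of these data known. Besides the 9 genes, named genes are up to 3 called genes of each list by smallest adjusted p, 5 γ-secretase subunits, the highest marker of a list and those at 0, and, for App, Apoe and Sorl1, the 3 genes closest in centred log2 CPM (prior count 2, mean of at least 10 CPM, predicted loci and small RNAs left out). Any other gene is marked in the text. 1 gene that the rule names is not reported here.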

Additional observations from a re-analysis of the deposited data

How the results depend on the processing

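App was called higher in cortex in all 15 alternatives and Aplp2 in 14, Clu in 13 and Sorl1 in 9. Leaving out 1 library in turn gave 2 to 4 of the 9 genes higher in cortex and 0 to 1 higher in dentate gyrus, 7 to 10 list genes higher in dentate gyrus and 10 to 17 higher in cortex, and 908 to 1276 and 913 to 1499 of all genes higher in dentate gyrus and cortex. The log2 fold changes that changed sign when 1 library was left out ranged from -0.043 to 0.50 for Bace1, -1.10 to 0.13 for Psen2, -2.22 to 0.29 for Apoe, -0.25 to 0.61 for Psenen, -0.087 to 0.11 for the marker gene Mbp and -2.34 to 1.01 for the marker gene Dcn. The log2 ratio of Bace1 to Adam10 reads, -0.33 over all libraries, ranged from -0.66 to 0.040. With both unlike libraries (cortex replicate 1, dentate gyrus replicate 2) left out, 1 of the 9 genes was higher in cortex, list genes numbered 6 and 9 and all genes 771 and 807 higher in dentate gyrus and cortex, and Dcn was at -2.08. Dcn was at -1.68 with limma voom. The fewer libraries in these fits leave less information on the spread, and otherwise the cause was not tested. Deviations from the tissue mean had correlations of -0.0005 and -0.0136 between same-numbered libraries. With 2 cortex libraries these deviations mirror each other, so the check cannot decide whether replicate numbers pair the libraries. With the replicate block, 3 of the 9 genes were higher in cortex, Sorl1 having an adjusted p of 0.0909, Ece2 had an adjusted p of 0.0840, Psen2 was at 0.075 and Dcn at -0.99. Of 730 results for 49 named genes, 662 kept direction and side of the threshold. Apoe and Psen2 had only 9 to 163 reads a library. Their exact Poisson intervals did not overlap between the cortex libraries for Apoe, nor between dentate gyrus replicates 2 and 3 for Psen2. The spread there was thus larger than counting error, and its cause was not tested.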
